A study of Mus musculus with 24 samples.

Results

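The epithelium that covers the front of the eye was followed through 39 genes, picked by gene symbol from the 19018 genes of a table of expected counts (read counts per gene as estimated by the authors' software). The 39 were all present and all passed the filter on low values, and they fall into 6 role groups: 4 basal genes (3 keratins and the transcription factor gene Trp63), 4 wound and hyperproliferation keratins, 8 mucosal genes, 6 genes of differentiated and corneal cells, 7 transcription factors and 10 adhesion genes. The values come from RNA-seq of 24 whole eyes of male CBA/N mice, which entered the study at 10 weeks of age and spent 4 weeks under 1 of 2 conditions. SC was a winter-like condition with 8 h of light, 16 h of dark and 10 °C, and LW a summer-like condition with 16 h of light, 8 h of dark and 27 °C. Eyes were taken every 4 h from 2 h to 22 h after midnight, with 2 eyes for each of the 12 groups. The eyes of 6 and 18 h were taken in the light under LW only, those of 10 and 14 h in the light under both conditions, and those of 2 and 22 h in the dark under both. Day length and temperature changed together and cannot be told apart here. The sources used here do not state if both eyes of a group were from separate animals, and p-values therefore measure the spread between eyes, which may be partly technical.

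The corneal epithelium is a stratified squamous sheet that renews itself from stem and basal cells near its margin. Basal cells make the keratin pair Krt5 and Krt14, and as cells move up in the mouse cornea they make the cornea's own keratin Krt12 and large amounts of the soluble protein Aldh3a1. The neighbouring conjunctiva is a mucous membrane whose keratins, Krt4, Krt13 and Krt19, are shared with other moist epithelia. Cells of both sheets are held together by cadherins and desmosomes, and grainyhead-like, Ets and Kruppel-like transcription factors regulate their barrier genes. Krt6a, Krt6b, Krt16 and Krt17 are known from the skin for their rise in wounded or fast-dividing epithelium.

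The cornea was well represented in these libraries. Per kilobase of transcript, the highest mean levels under SC among the 38 members with a known length were those of Krt12, at 64900 ± 5083 scaled counts per kilobase (SD, n = 12 eyes), Aldh3a1, at 43720 ± 2863, and Krt5, at 41330 ± 2611. The mucosal keratins were lower on the same scale, with Krt13 at 5762 ± 589, Krt4 at 2554 ± 384.4 and Krt19 at 2472 ± 313.8. A scaled count is an expected count divided by the library's relative size, so that libraries can be compared, and library totals lay between 19543401 and 28859071 expected counts. Krt16 and Muc16 were scarce, with Krt16 at 17.41 ± 9.719 scaled counts per kilobase under LW, and Muc16, a membrane mucin with no length used here, averaged 27.2 scaled counts under SC and 18.4 under LW.

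Single libraries stood apart. SC 6 h replicate 2 held skin and liver transcripts, with 13 of 18 cornified skin genes and 12 of 12 liver genes at their highest there. The filaggrin gene Flg, which marks cornified skin, reached a scaled count of 2326 in it and at most 60.7 in any other library, and the albumin gene Alb reached 1807, with 236 in the next library, SC 10 h replicate 2. Among the members, however, Dsc2 and Perp alone were highest in SC 6 h replicate 2. SC 6 h replicate 1 was the highest library for 12 members and LW 2 h replicate 2 the lowest for 21, and the main counts are given with and without these libraries.

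The first question was whether the surface epithelium differed between the winter-like and the summer-like eye. Of the 39 members, 17 were higher under SC and 0 were higher under LW at an adjusted p under 0.05, whereas over all 18233 genes tested the shares were 4.65% higher under SC and 4.84% higher under LW. The members were chosen with earlier results of these data known, so this and the later contrasts with all genes are no independent check. Among the members 4 further genes had an interval of the difference that lay on 1 side of 0 without passing the adjusted threshold: Psca, Krt12 and Ehf on the SC side and Dsg1a on the LW side. The median log2 difference of the members, LW minus SC, was -0.13, against 0.00 over all genes. Fewer epithelial cells in the sample and less of these transcripts in each cell cannot be told apart in whole eyes. The count without SC 6 h replicate 2, the library with skin transcripts, was 19 higher under SC and 0 higher under LW, and the 17 members were all among the 19, joined by Krt12 and Lypd3.

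**Figure D1:**
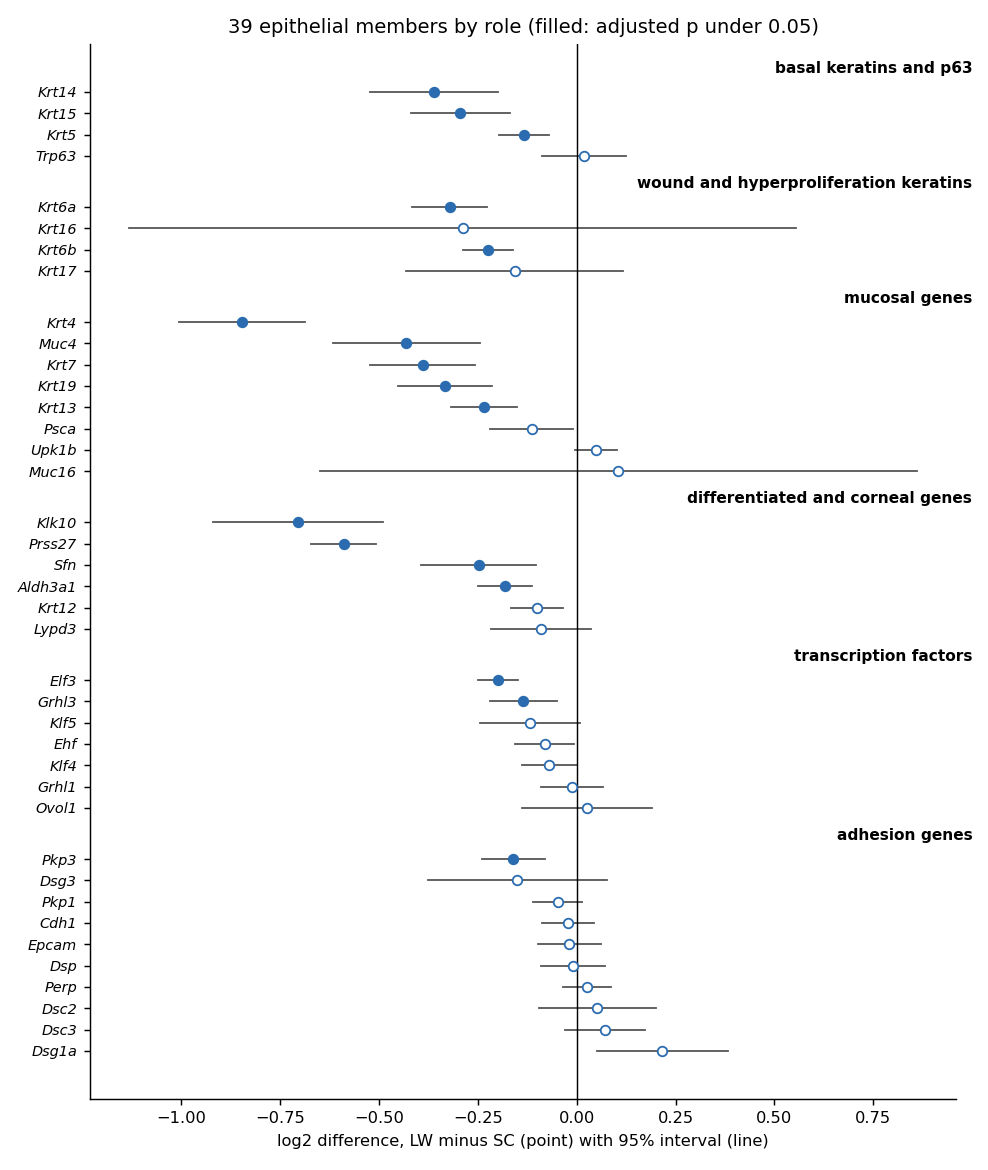
Log2 difference between conditions (LW minus SC, x axis) for each of the 39 members, by role group. Points are the estimates over 24 eyes, lines their 95% intervals, and filled points passed an adjusted p under 0.05. All 17 filled points lie left of 0, from -0.85 for Krt4 to -0.13 for Krt5, and most adhesion genes sit close to 0.

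The 250 bases that precede the annotated start are shown for 5 members that the results turn on, 5′ to 3′ on each gene's strand. They are Prss27 and Klk10, protease genes that were higher under SC, Elf3 and Grhl3, transcription factor genes that changed with the time of day, and Krt12, the corneal keratin used below as a reference. The sequences come from RefSeq on build GRCm38.p6, through a table of promoters in which 17 of the 39 members were matched. The windows are chr17:24037993-24038242 on the plus strand for Prss27, chr7:43780804-43781053 on the plus strand for Klk10, chr1:135258473-135258722 on the minus strand for Elf3, chr4:135573633-135573882 on the minus strand for Grhl3 and chr11:99422260-99422509 on the minus strand for Krt12. The Krt12 start used there, at 99422259, lies inside the gene's RefSeq span, which reaches 99422593, so that this window is within the span, while the other 4 windows end where their gene's span begins. Capitals mark CACCC, a motif of Kruppel-like factors, on either strand (GGGTG on the other), and TATAAA, the TATA box.
Prss27: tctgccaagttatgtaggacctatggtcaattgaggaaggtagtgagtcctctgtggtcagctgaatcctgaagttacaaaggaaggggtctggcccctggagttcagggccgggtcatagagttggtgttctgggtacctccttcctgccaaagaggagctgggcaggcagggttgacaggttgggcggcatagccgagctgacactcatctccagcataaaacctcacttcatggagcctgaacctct
Klk10: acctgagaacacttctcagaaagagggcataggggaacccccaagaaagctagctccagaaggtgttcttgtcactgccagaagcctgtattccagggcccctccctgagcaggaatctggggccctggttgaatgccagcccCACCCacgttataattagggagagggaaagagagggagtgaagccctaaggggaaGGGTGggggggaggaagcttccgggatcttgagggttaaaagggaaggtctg
Elf3: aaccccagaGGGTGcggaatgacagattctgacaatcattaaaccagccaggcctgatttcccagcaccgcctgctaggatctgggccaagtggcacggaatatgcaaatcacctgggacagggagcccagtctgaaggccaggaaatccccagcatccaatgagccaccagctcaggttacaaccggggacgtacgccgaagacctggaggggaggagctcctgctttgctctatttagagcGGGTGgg
Grhl3: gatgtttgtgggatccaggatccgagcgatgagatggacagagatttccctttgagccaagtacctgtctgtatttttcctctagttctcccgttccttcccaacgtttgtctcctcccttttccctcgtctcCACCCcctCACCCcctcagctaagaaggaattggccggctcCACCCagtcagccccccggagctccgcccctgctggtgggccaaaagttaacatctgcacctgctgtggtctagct
Krt12: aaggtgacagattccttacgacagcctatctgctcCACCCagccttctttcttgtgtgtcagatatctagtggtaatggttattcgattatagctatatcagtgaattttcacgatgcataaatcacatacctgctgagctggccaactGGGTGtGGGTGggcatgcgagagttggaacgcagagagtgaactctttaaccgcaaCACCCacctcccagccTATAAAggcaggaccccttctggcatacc
The CACCC motif occurred in 4 of the 5 windows, in all but that of Prss27, and in 15 of the 19 annotated member starts (78.9%), against 52% of 32851 windows of the same length over all genes. TATAAA occurred before Krt12, 29 bases from its start, and in 12.4% of all windows. Neither the grainyhead motif AACNNGTT (3.64% of all windows), the AP-1 motif TGANTCA (6.75%) nor the E-box CACGTG (6.02%) occurred in any of the 5, searched on both strands. Such matches describe letters in a window and say nothing of binding.

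Among the basal genes, the keratins Krt5, Krt14 and Krt15 were higher under SC and Trp63 did not pass the test. Krt14 (chromosome 11, 100203162 to 100207510) had scaled counts of 3662 at the lowest, 4028 at the median and 6003 at the highest under SC, and 2474, 3474 and 4057 under LW. The 2 sets of eyes overlapped, but 6 of 12 LW eyes lay below the lowest SC eye, and the mean was lower under LW at 6 of 6 times. The log2 difference was -0.36 ± 0.075 (SE), with adjusted p = 0.0096, and -0.30 without SC 6 h replicate 1, the highest eye. It did not pass without the eyes of 14 h (adjusted p = 0.058). Krt5 (chromosome 15, 101707069 to 101712905), the partner of Krt14 in the basal keratin filament, differed by less. Its scaled counts were 82079, 91798 and 100306 at the lowest, the median and the highest under SC, and 59903, 85814 and 94455 under LW, so that most eyes overlapped. Its log2 difference was -0.13 ± 0.030 (adjusted p = 0.0087), and without the eyes of 2 h it was -0.077 and did not pass (adjusted p = 0.12). Krt15, a keratin linked to slow-cycling basal and limbal cells, had a log2 difference of -0.29 (adjusted p = 0.0064), which did not pass without the eyes of 6 h (-0.24, adjusted p = 0.054) or those of 2 h (-0.23, adjusted p = 0.066). Trp63, the gene of the stratified epithelial regulator p63, had means of 1281 ± 150.1 under SC and 1297 ± 151.9 under LW (SD, n = 12), with an interval of the log2 difference from -0.087 to 0.12.

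Of the 4 wound and hyperproliferation keratins, Krt6a and Krt6b were higher under SC, and Krt16 and Krt17 did not pass. Krt6a (chromosome 15, 101689928 to 101694305) had scaled counts of 20909, 23789 and 29402 at the lowest, median and highest under SC and of 13016, 18644 and 25594 under LW, with 8 of 12 LW eyes below every SC eye. Its log2 difference was -0.32 ± 0.045 (adjusted p = 3.5e-04). Krt6b (chromosome 15, 101676023 to 101680293) ran from 17563 through 20044 to 21009 under SC and from 14430 through 16497 to 19517 under LW, with 9 of 12 LW eyes below every SC eye and a log2 difference of -0.22 ± 0.030 (adjusted p = 7.3e-05). These neighbouring genes are related, as are Krt14, Krt16 and Krt17, and their transcript sequences were not compared here. How the authors' software split reads among related keratins is therefore uncertain. Krt16 was measured at 833 in SC 6 h replicate 1 and at 61.4 or less in each of the other 23 eyes, 59.0 of it in the second SC eye of 6 h. Its log2 difference over all eyes was -0.29, with an interval from -1.13 to 0.55, and 0.029 without that library. The same library was also the highest for Lypd3 (3589, with 2631 in the next eye), Sfn (7957 and 5914), Krt14 (6003 and 5477) and Cdh1 (3904 and 3440).

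Among the mucosal genes 5 of 8 were higher under SC, with a median log2 difference of -0.28, the farthest from 0 of the 6 role groups. Krt4 (chromosome 15, 101918535 to 101924735), a keratin of moist, non-cornified surfaces, had scaled counts of 3959, 5541 and 6894 at the lowest, median and highest under SC and of 2197, 2967 and 4094 under LW. A total of 10 of 12 LW eyes lay below every SC eye, and the LW mean was lower at 6 of 6 times. The level was 1.80-fold higher under SC, a log2 difference of -0.85 ± 0.074 (adjusted p = 1.7e-05). It was -0.63 (adjusted p = 0.012) when the eyes of 2 and 6 h, where the conditions differed most, were left out.

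Its usual partner Krt13 (chromosome 11, 100117327 to 100121566) differed by less. Krt13 ran from 7647 through 9818 to 10709 under SC and from 6641 through 7999 to 9375 under LW, with overlapping eyes and a log2 difference of -0.24 ± 0.040 (adjusted p = 0.0011). Krt19 (chromosome 11, 100140810 to 100145926), a keratin of simple and conjunctival epithelium, ran from 2914 through 3949 to 4570 under SC and from 2353 through 3047 to 4182 under LW, with 5 of 12 LW eyes below every SC eye (log2 difference -0.33 ± 0.055, adjusted p = 0.0016). Krt7 (chromosome 15, 101412403 to 101427806), a keratin of glandular and simple epithelium, ran from 1291 through 2069 to 2612 under SC and from 1115 through 1540 to 2017 under LW (log2 difference -0.39 ± 0.062, adjusted p = 0.0011). For these 3 keratins the difference kept its sign but did not pass without the eyes of 2 and 6 h, at -0.14 for Krt13, -0.17 for Krt19 and -0.23 for Krt7, with adjusted p between 0.12 and 0.18. Muc4, a membrane-bound mucin of the ocular surface, was 1.35-fold higher under SC (18197 ± 2239 against 13507 ± 1809, adjusted p = 0.0082), and lower under LW at 6 of 6 times, and its log2 difference of -0.43 was -0.34 without the eyes of 2 and 6 h, where it did not pass (adjusted p = 0.14). Psca, a small surface protein (log2 difference -0.11, adjusted p = 0.17), Upk1b, a tetraspanin of the urothelium and the ocular surface (0.05, adjusted p = 0.24), and Muc16 (adjusted p = 0.89) did not pass.

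Among the differentiated and corneal genes, 4 of 6 were higher under SC. For 2 surface protease genes the SC and LW eyes did not overlap. The share of all genes without overlap was not counted, so how unusual this is cannot be said. Prss27 (chromosome 17, 24038243 to 24045949), which encodes the serine protease marapsin, had scaled counts of 1351, 1583 and 1804 at the lowest, median and highest under SC and of 824, 1023 and 1285 under LW. All 12 LW eyes lay below the lowest SC eye. The level was 1.504-fold higher under SC (log2 difference -0.59 ± 0.040, adjusted p = 2.6e-09), and the smallest difference at any time was -0.35, at 10 h. Klk10 (chromosome 7, 43781054 to 43785410), a kallikrein-related peptidase of surface epithelia, ran from 181 through 246 to 349 under SC and from 122 through 156 to 173 under LW, again with no overlap. Its log2 difference was -0.70 ± 0.10 (adjusted p = 2.4e-04), and the SC eyes, with an SD of 56.85, were more spread than the LW eyes, with an SD of 14.5. The 2 eyes of 1 SC group could differ widely, at 204 and 349 at 2 h and at 181 and 341 at 6 h. The LW eyes were at 154 and 154 at 2 h and at 133 and 152 at 6 h. The value of 341 is from SC 6 h replicate 2, the library with skin transcripts, and without it the log2 difference of Klk10 was -0.63.

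Aldh3a1 (chromosome 11, 61208510 to 61218418), the abundant corneal aldehyde dehydrogenase, ran from 66172 through 75030 to 81782 under SC and from 53299 through 67102 to 74975 under LW. Its LW mean was lower at 6 of 6 times, with a log2 difference of -0.18 ± 0.033 (adjusted p = 0.0016). Krt12 (chromosome 11, 99415664 to 99422593) ran from 107677 through 119289 to 134935 under SC and from 85759 through 114279 to 123416 under LW. Its log2 difference of -0.10 ± 0.032 did not pass (adjusted p = 0.054), with an interval from -0.17 to -0.033, and it passed in 10 of 42 other settings. Sfn, the 14-3-3 protein stratifin of squamous cells, had a log2 difference of -0.25 (adjusted p = 0.035) and passed in 21 of the 42. Lypd3, a surface protein of migrating keratinocytes, did not pass (-0.09, adjusted p = 0.37).

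**Figure D2:**
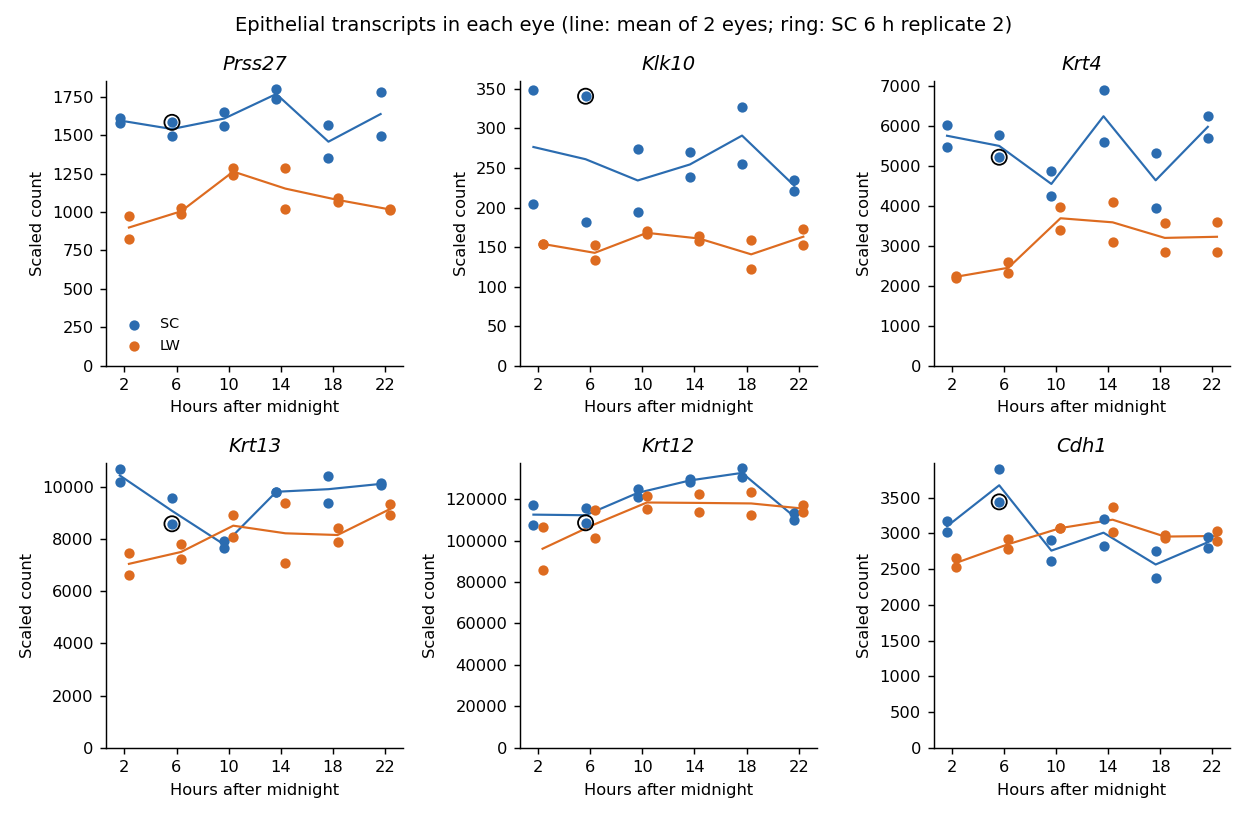
Scaled count (y axis) of 6 members in each of the 24 eyes by hours after midnight (x axis), with SC in blue and LW in orange. Points are single eyes, lines the means of 2 eyes, and the ring marks SC 6 h replicate 2. Prss27 and Klk10 show 12 LW eyes below all SC eyes, and how many of all genes do so was not counted. Krt4 is lowest in the LW eyes of 2 and 6 h, and Cdh1 overlaps between conditions.

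The keratins also differed from each other within a library. As a share of the Krt12 expected count in the same eye, Krt4 was 4.58% ± 0.853 under SC and 2.71% ± 0.432 under LW (SD, n = 12), with 9 of 12 LW eyes below the lowest SC eye. The log2 ratio of Krt4 to Krt12 differed by -0.75 between conditions, with adjusted p = 6.4e-04 in an exact permutation test that reassigned the conditions within each time (two-sided, 46656 assignments, 5 ratios). The other 4 ratios differed in the same direction by less. Krt14 was 3.61% ± 0.641 of Krt12 under SC and 2.99% ± 0.349 under LW (log2 ratio -0.26, adjusted p = 0.0085 in the exact test), and Krt6a 20.1% ± 2.34 and 17.3% ± 2.22 (-0.22, adjusted p = 0.0035). Krt19 was 3.27% ± 0.575 and 2.78% ± 0.450 (-0.23, adjusted p = 0.020 in the exact test), and Krt13 7.98% ± 1.08 and 7.22% ± 0.574 (-0.14, adjusted p = 0.020). Without the eyes of 2 and 6 h the Krt4 ratio passed (-0.56, adjusted p = 0.023 in the exact test) and the other 4 did not. A ratio within a library shows that 2 transcripts changed unequally, not which of them moved.

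**Figure D3:**
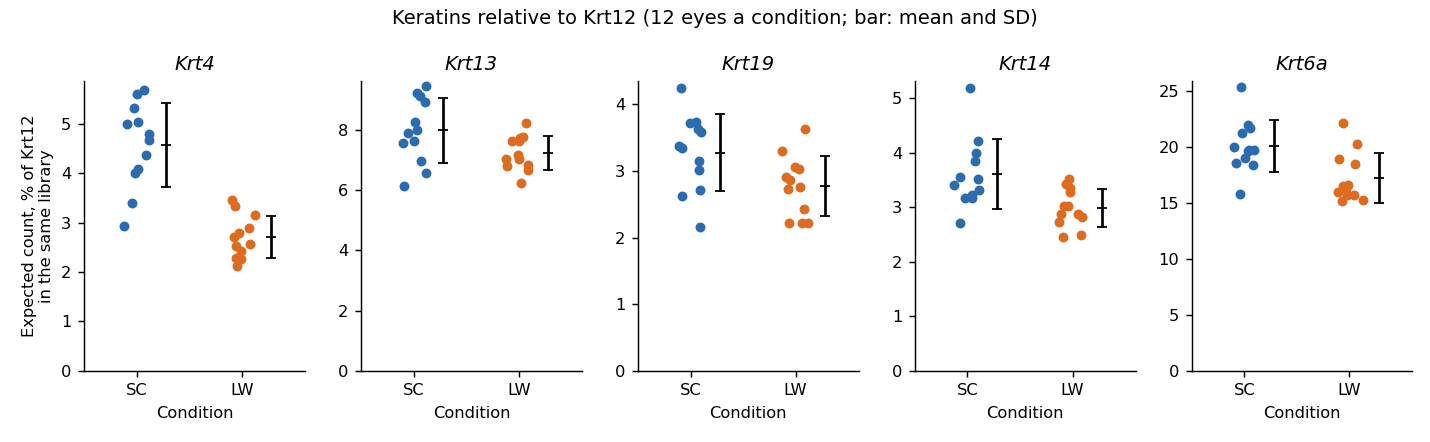
Expected count of 5 keratins as a percentage of the Krt12 expected count in the same library (y axis), for 12 SC and 12 LW eyes. Points are eyes, spread sideways for visibility, and bars give the mean and SD. The Krt4 share falls from 4.58% under SC to 2.71% under LW with little overlap, and the other keratins overlap more.

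Of the 7 transcription factors, 2 were higher under SC, and the median log2 difference of the group was -0.08. Elf3 (chromosome 1, 135253574 to 135258472), an Ets factor of epithelial differentiation, had scaled counts of 3974, 4695 and 5088 at the lowest, median and highest under SC and of 3131, 4107 and 5123 under LW. The eyes overlapped, with a log2 difference of -0.20 ± 0.024 (adjusted p = 1.5e-05). Grhl3, a grainyhead-like factor of barrier formation and wound closure, had a log2 difference of -0.13 (adjusted p = 0.039), passed in 21 of 42 other settings, and was 0.012 without the eyes of 2 and 6 h. Ehf, Klf4, Klf5, Grhl1 and Ovol1 did not pass, with log2 differences between -0.12 for Klf5 and 0.026 for Ovol1.

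Of the adhesion genes, 1 of 10 was higher under SC, with a median log2 difference of -0.01, the closest to 0 of the 6 role groups. The member that passed was Pkp3, a plakophilin of the desmosomal plaque (-0.16, adjusted p = 0.011, and 0.071 without the eyes of 2 h). Cdh1 (chromosome 8, 106603350 to 106670247), the gene of E-cadherin, ran from 2375 through 2929 to 3904 under SC and from 2525 through 2955 to 3365 under LW, with an interval of the log2 difference from -0.087 to 0.044. Epcam (chromosome 17, 87635979 to 87651127), an epithelial adhesion molecule, ran from 563 through 754 to 1028 under SC and from 633 through 757 to 888 under LW, with an interval from -0.097 to 0.060. The desmoplakin gene Dsp (-0.01), the plakophilin gene Pkp1 (-0.05), the tetraspan gene Perp (0.03) and the desmosomal cadherin genes Dsg3 (-0.15), Dsc2 (0.05), Dsc3 (0.07) and Dsg1a (0.22) did not pass either. When every library was centred on 7 epithelial genes (Cdh1, Epcam, Dsp, Pkp1, Pkp3, Perp and Sfn, of which Pkp3 and Sfn were themselves called higher under SC) instead of its whole content, 14 members were higher under SC, all of them among the 17, and 3 were higher under LW, namely Dsg1a (0.28, adjusted p = 0.012), Upk1b (0.12, adjusted p = 0.031) and Dsc3 (0.14, adjusted p = 0.048). Over all genes that centring gave 242 higher under SC and 2296 higher under LW, against 847 and 883 with the main scaling.

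In these eyes the difference between conditions was larger at some times than at others. By the test of the interaction, given below, it varied with time for 5 of 39 members. At 2 h the level was lower under LW for 36 of 39 members, with a median log2 difference of -0.32, and at 6 h for 35 of 39, with a median of -0.33. At 10 h it was lower for 17 of 39 (median 0.033), at 14 h for 24 (-0.11), at 18 h for 21 (-0.022) and at 22 h for 23 (-0.035). Over all genes the share lower under LW was between 47.7% and 49.4% at each time. Members measured in the same eyes are not independent, so these counts are a description and no test. The eyes of 2 and 6 h include LW 2 h replicate 2, the lowest library for 21 members, and SC 6 h replicate 1, the highest for 12. The counts by time were not redone without them. Without the eyes of both 2 and 6 h, 9 of the 39 members were higher under SC and 0 under LW (Krt14, Krt6a, Krt6b, Krt4, Aldh3a1, Prss27, Klk10 and Elf3 of the 17, and Psca). Over all 17978 genes tested in that setting 536 were higher under SC and 471 under LW, against 847 and 883 of 18233 with all eyes. Calls thus fell over all genes too when these eyes were left out. The log2 difference was then -0.22 for Krt14, -0.18 for Krt6a, -0.14 for Krt6b and -0.093 for Elf3. Without SC 6 h replicate 1 and LW 2 h replicate 2, the libraries at the ends of the members' range, the 17 but for Grhl3 were still higher under SC. Calls over all genes fell there too, and SC 6 h and LW 2 h each rested on 1 eye.

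**Figure D4:**
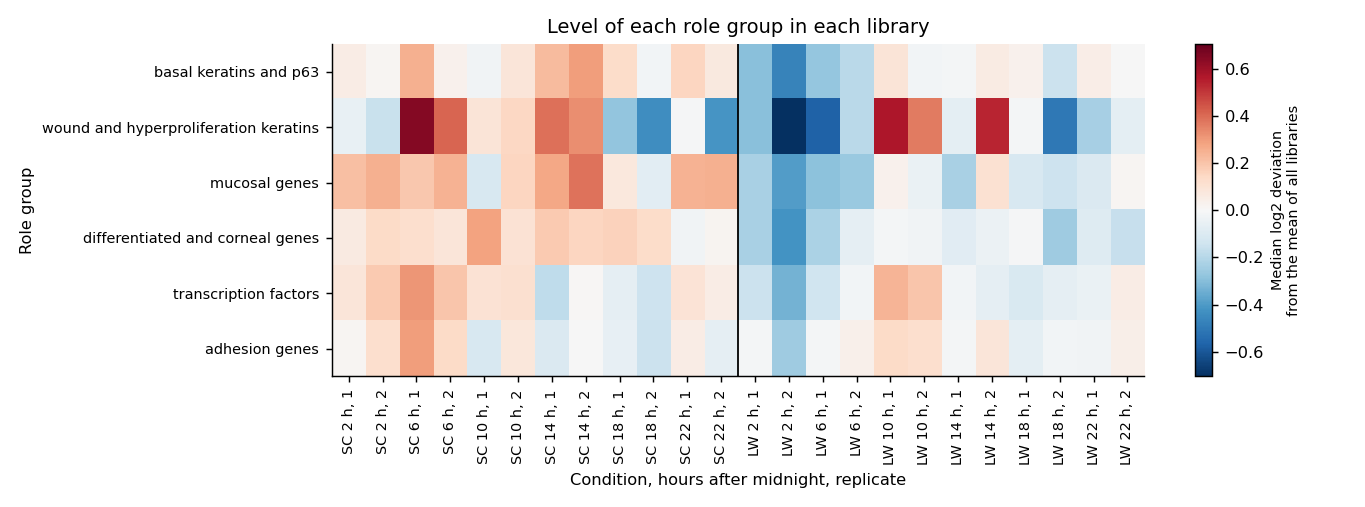
Level of each role group (rows) in each of the 24 libraries (columns, named by condition, hour and replicate), as the median over its members of the log2 deviation from their mean over all libraries. Red is above and blue below that mean, with LW 2 h replicate 2 at -0.70 and SC 6 h replicate 1 at 0.64 for the wound keratins, and SC 6 h replicate 1 at 0.29 for the adhesion genes.

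The second question was how the epithelium changed over the day. Over the 6 times, averaged over conditions, 22 of 39 members changed, against 23.3% of all genes tested. They were 6 of 7 transcription factors, 6 of 10 adhesion genes, 4 of 6 differentiated and corneal genes, 3 of 8 mucosal genes, 2 of 4 wound keratins and 1 of 4 basal genes. The ratio of the highest to the lowest time had a median of 1.26 over the 22, from 1.15 to 2.27 for Krt17 and 5.58 for Muc16, a scarce transcript at 0 in both SC eyes of 18 h. Of the 22, 8 were highest at 10 h (Krt6a, Sfn, Elf3, Grhl1, Grhl3, Ovol1, Pkp1 and Pkp3), 9 were lowest at 2 h and 8 were lowest at 18 h. Without LW 2 h replicate 2, 5 of the 22 were lowest at 2 h and 10 at 18 h, and 18 members changed, with Aldh3a1, Prss27, Klf4 and Pkp3 no longer passing (adjusted p between 0.052 and 0.067). Without SC 6 h replicate 1, 21 members changed, with Cdh1 (adjusted p = 0.088) and Krt19 (0.060) no longer passing, and without SC 6 h replicate 2, 24 changed, with Krt19 no longer passing (adjusted p = 0.073).

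Elf3, Grhl1, Epcam and Pkp1 had the smallest p-values over the times. Elf3 had a mean scaled count of 4811 at 10 h and 3861 at 18 h, averaged over both conditions (adjusted p = 7.6e-05). Grhl1, a grainyhead-like factor that regulates desmosomal cadherins, had 1048 at 10 h and 790 at 18 h (adjusted p = 1.8e-04), and Epcam 880 at 6 h and 616 at 18 h (adjusted p = 2.0e-04). Pkp1 had 6399 at 10 h and 5256 at 2 h (adjusted p = 7.0e-04). Without LW 2 h replicate 2 the Pkp1 mean at 2 h was 5446, above the 5386 of 18 h. The widest change among the transcription factors was that of Ovol1, a zinc-finger repressor of epithelial progenitors, at 281 at 10 h and 162 at 14 h (adjusted p = 0.0035). Krt5 had its lowest mean, 76812, at 2 h (79912 without LW 2 h replicate 2) and its highest, 94747, at 14 h (adjusted p = 0.0011). Krt12 had 104306 at 2 h (109475 without that library) and 125336 at 18 h (adjusted p = 0.0051). Aldh3a1 had 64575 at 2 h (67435 without that library) and 75601 at 18 h (adjusted p = 0.025). Without LW 2 h replicate 2 the mean of Aldh3a1 was no longer lowest at 2 h. Without SC 6 h replicate 1 as well, that of Krt12 was not either. Ehf, an Ets factor related to Elf3, had its lowest mean at 10 h (2224), where that of Elf3 was highest, and its own highest at 22 h (2752, adjusted p = 0.0060).

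**Figure D5:**
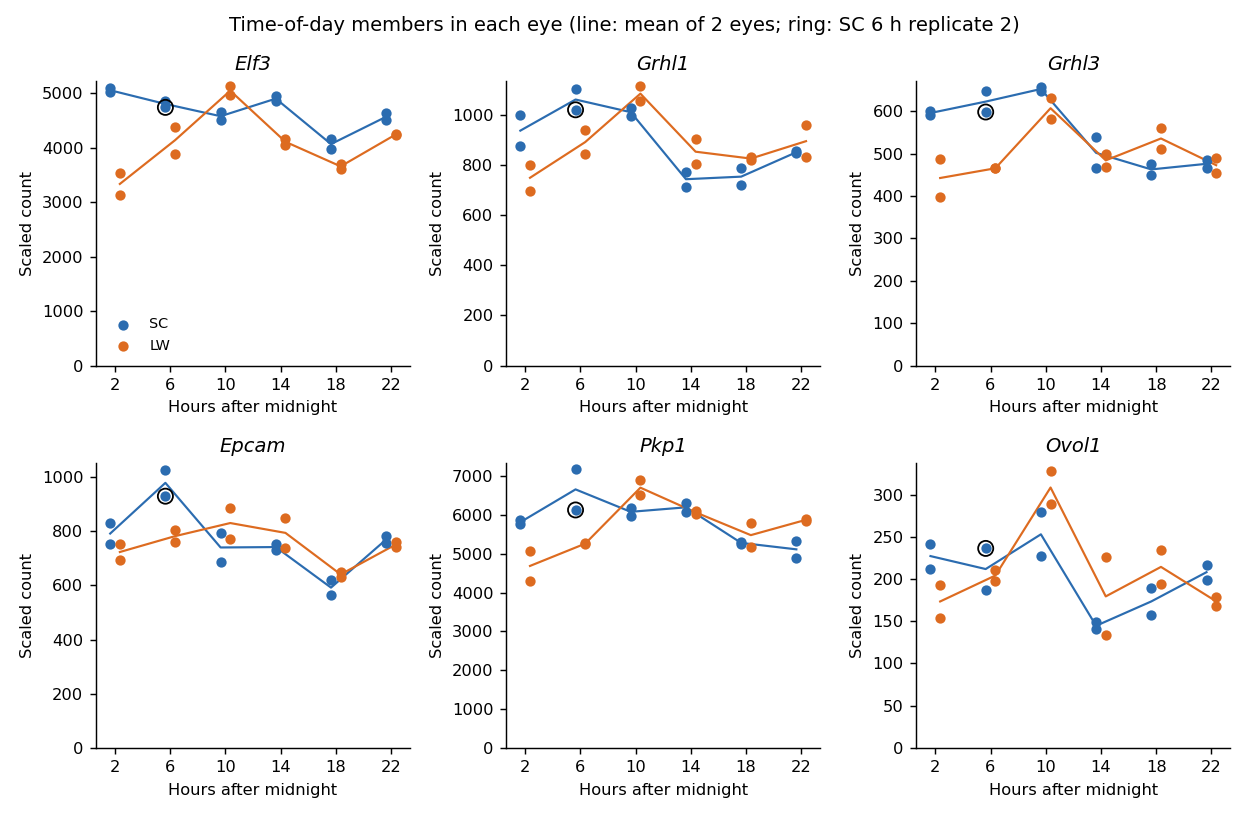
Scaled count (y axis) of 6 members in each of the 24 eyes by hours after midnight (x axis), with SC in blue and LW in orange, points for eyes, lines for means of 2 eyes and a ring for SC 6 h replicate 2. Elf3 and Grhl1 peak at 10 h under LW, and at 2 h the LW eyes of Elf3 lie at 3537 and 3131, below the SC eyes at 5019 and 5088.

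The third question was whether the course over the day differed between conditions. The interaction of condition and time passed for 5 of 39 members, Elf3, Pkp1, Cdh1, Grhl3 and Grhl1, against 4.98% of all genes tested. Elf3 was at 5019 and 5088 in the SC eyes of 2 h and at 3537 and 3131 in the LW eyes, while at 10 h the LW eyes, at 5123 and 4967, lay above the SC eyes, at 4650 and 4504 (interaction adjusted p = 2.2e-04). Pkp1 was at 7196 and 6135 in the SC eyes of 6 h and at 5285 and 5247 in the LW eyes, and at 4894 and 5344 against 5859 and 5903 at 22 h (adjusted p = 0.0041). In Cdh1 the order of the conditions turned between 6 h, at 3904 and 3440 under SC and 2916 and 2781 under LW, and 18 h, at 2753 and 2375 under SC and 2935 and 2974 under LW (adjusted p = 0.0058). Grhl3 (adjusted p = 0.025) was higher in the SC eyes at 2, 6 and 10 h and higher in the LW eyes at 18 h. Grhl1 (adjusted p = 0.041) was higher in the SC means at 2 and 6 h and in the LW means at the later times. Without SC 6 h replicate 2 the 5 were joined by Krt5, Krt14, Krt6a, Krt16, Sfn, Lypd3 and Klf4. SC 6 h then rested on replicate 1 alone, and fewer of all genes passed than with all eyes. Without SC 6 h replicate 1 and LW 2 h replicate 2, Elf3 and Pkp1 alone still passed. Fewer of all genes passed there too, and SC 6 h and LW 2 h each rested on 1 eye.

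Other epithelial genes from lists chosen for this tissue are set beside the members. The lists were chosen with earlier results of these data known, so their calls are no independent check. Of 9 other epithelial keratins 6 were higher under SC and 0 under LW (median log2 difference -0.32), with Krt23 (-0.54, adjusted p = 1.1e-05), Krt75 (-0.59, adjusted p = 1.4e-04) and Krt80 (-0.13, adjusted p = 6.9e-04) leading. Of 19 junction partners 6 were higher under SC and 0 under LW (median -0.07), among them the claudin gene Cldn7 (-0.20, adjusted p = 0.0013) and the plakoglobin gene Jup (-0.11, adjusted p = 0.0084). Of 11 genes of the hemidesmosome and basement membrane 5 were higher under SC and 0 under LW (median -0.09), among them the integrin gene Itga6 (-0.21, adjusted p = 1.4e-04). Of 14 further corneal and squamous surface genes 3 were higher under SC and 0 under LW, led by Gsto1, a glutathione transferase (62324 ± 3233 against 48382 ± 4982, log2 difference -0.37, adjusted p = 2.7e-10). Of 16 surface glycoproteins and proteases 5 were higher under SC, among them Tmprss4 (-0.32, adjusted p = 7.2e-07) and Klk11 (-0.52, adjusted p = 1.7e-05), and 1, the mucin gene Muc13, was higher under LW (0.77, adjusted p = 3.4e-04). Of 10 conjunctival goblet cell genes 1 was higher under SC, the glycosyltransferase gene Galnt12 (-0.27, adjusted p = 0.0054).

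Markers of other tissues are given beside the shares of all genes, 4.65% higher under SC and 4.84% higher under LW. Of 10 lens genes 7 were higher under LW and 1 under SC, with a summed level of 32975 to 40988 CPM (counts relative to library size) under SC and 37309 to 42989 under LW, and Cryaa, the alpha-crystallin gene, differed by 0.21 (adjusted p = 4.7e-04). Of 10 genes of the corneal stroma and fibroblasts 3 were higher under LW and 1 under SC, with summed levels of 3393 to 5395 and 4298 to 5336 CPM, and Kera, the keratocan gene of the corneal stroma, differed by 0.63 (adjusted p = 0.024). Of 17 cornified skin genes tested 1 was higher under SC, the involucrin gene Ivl (-0.43, adjusted p = 0.0014), and 1 under LW, the corneodesmosin gene Cdsn (0.32, adjusted p = 0.022), with summed levels of 669 to 1034 CPM under SC, the highest of it in SC 6 h replicate 2, and 535 to 795 under LW. Of 12 skeletal muscle genes 1 was higher under SC, with summed levels of 2625 to 3999 and 2228 to 3668. No gene of these lists was at 0 in all libraries, and their part in the differences of the members was not tested.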

How the data were processed

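RNA of 24 whole eyes was sequenced as strand-specific TruSeq mRNA libraries. Per the methods and the submitters' processing notes, the authors used SOAPnuke to filter reads, HISAT2 2.0.4 to align them to GRCm38.p6, and RSEM (version not given in the sources used here) to estimate the expected counts, which they deposited for 19018 genes. No number stands in 9.54% of the deposited cells, which were read as 0. Low counts could be affected by this. Conditions came from the sample labels.

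Expected counts were scaled by TMM, computed from its definition (trims of 30% on log ratios and 5% on mean levels). Genes that reached a scaled count of 1 in 2 or more libraries, 18233 in all, entered limma 3.58.1 (R 4.3.3, with trend and robust options) on log2(scaled count + 1), in 1 fit of 12 group means with 12 residual degrees of freedom. Tested were the mean difference LW minus SC over the 6 times, an F test over the times and an F test of the interaction. A log2 difference on this scale understates changes of scarce genes. The Benjamini-Hochberg adjusted p over all genes tested was called under 0.05. Intervals are 95% and unadjusted. Ratios to Krt12 were tested on log2(expected count + 1) by exact permutation. The fits were tested on simulated data. Transcript lengths came from GENCODE vM21 and gene positions from RefSeq, both on GRCm38.p6. Python 3.11.15 and matplotlib 3.10.9 drew the plots.

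The members and lists were chosen with earlier results of these data known. Full values are given for the 10 members with the smallest p between conditions, the 4 with the smallest over the times and for the interaction, and 10 set markers. Members outside this rule, such as Muc4, Krt16 and Ovol1, were singled out after their values were seen. The alternatives were other scalings, pseudocounts and filters, limma's voom weights, a replicate block, and leaving out single libraries or times.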

Additional observations from a re-analysis of the deposited data

Results flagged for a closer look

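For 5 members the difference between LW and SC changed with the time of day, by the F test of the interaction of condition and time in limma. They are Elf3 (adjusted p = 2.2e-04), the plakophilin gene Pkp1 (adjusted p = 0.0041), the E-cadherin gene Cdh1 (adjusted p = 0.0058), Grhl3 (adjusted p = 0.025) and Grhl1 (adjusted p = 0.041). In each of the 5 the log2 difference, LW minus SC, was below 0 at 2 h and at 6 h, with -0.60 and -0.22 for Elf3, -0.32 and -0.34 for Pkp1, -0.26 and -0.36 for Cdh1, -0.44 and -0.42 for Grhl3, and -0.32 and -0.25 for Grhl1. Of all 39 members 36 were below 0 at 2 h and 35 at 6 h, so this was not particular to the 5. At 10 h the difference was 0.14 for Elf3, 0.14 for Pkp1, 0.16 for Cdh1, -0.10 for Grhl3 and 0.10 for Grhl1. At 14 h it was -0.25 for Elf3, -0.030 for Pkp1, 0.085 for Cdh1, -0.049 for Grhl3 and 0.20 for Grhl1. At 18 h it was -0.15 for Elf3, 0.05 for Pkp1, 0.21 for Cdh1, 0.21 for Grhl3 and 0.13 for Grhl1. At 22 h it was -0.11 for Elf3, 0.20 for Pkp1, 0.043 for Cdh1, -0.010 for Grhl3 and 0.069 for Grhl1. Of 42 other settings, the interaction passed in 42 for Elf3, 41 for Pkp1, 39 for Cdh1, 32 for Grhl3 and 19 for Grhl1. Without SC 6 h replicate 1, the library highest in most members, the adjusted p was 4.9e-04 for Elf3, 0.0078 for Pkp1, 0.025 for Cdh1, 0.060 for Grhl3 and 0.089 for Grhl1.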

How the results depend on the processing

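Of the 17 members called higher under SC, 7 passed in all 42 other settings apart from the centring on epithelial genes (Krt6a, Krt6b, Krt4, Aldh3a1, Prss27, Klk10 and Elf3), and 16 kept their direction in all 42. The exception was Grhl3, at 0.012 without the eyes of 2 and 6 h. Leaving out 1 library at a time gave 15 to 19 members higher under SC, 0 to 1 higher under LW (1 without SC 14 h replicate 2), 18 to 24 changed over the times and 4 to 12 for the interaction, which was 12 without SC 6 h replicate 2 and 8 without LW 2 h replicate 1 or LW 14 h replicate 2. The interaction count was 12 without the 2 libraries with liver transcripts, 2 without the eyes of 2 and 6 h, and 2 without the libraries highest and lowest in most members. The last 2 settings were chosen after seeing the data, and without the eyes of 2 and 6 h 9 members were higher under SC. Over all genes, leaving out the eyes of 2 and 6 h gave 536 higher under SC and 209 for the interaction, against 847 and 908 with all eyes. Calls over all genes also moved when 1 library was left out. They fell without the libraries highest and lowest in most members. The centring on epithelial genes gave 3 members higher under LW against 0, and the centred genes are themselves members.

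Of the log2 ratios to Krt12, those of Krt13 and Krt19 lost their call without the 2 libraries with liver transcripts (-0.13 and -0.22), without the eyes of 2 h (-0.095 and -0.19), of 6 h (-0.12 and -0.16), of 22 h (-0.12 and -0.22) or of both 2 and 6 h (-0.066 and -0.096). That of Krt14 lost it without the eyes of 6 h (-0.16) or of 2 and 6 h (-0.14), and that of Krt6a without those of 2 and 6 h (-0.10). With 1 library left out the ratios lay between -0.79 and -0.71 for Krt4, -0.16 and -0.11 for Krt13, -0.28 and -0.18 for Krt19, -0.31 and -0.21 for Krt14, and -0.24 and -0.20 for Krt6a, with adjusted p of up to 0.069 in the exact test for Krt13 and Krt19, both lost without LW 10 h replicate 2 and Krt19 also without SC 2 h replicate 1. The causes were not tested.

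With the replicate number as a block, 17 members were higher under SC, 0 higher under LW, 20 changed over the times and 4 passed for the interaction. The numbers do not pair the eyes: the differences of replicate 1 and 2 under SC and LW at the same time had correlations between -0.20 and -0.075 across genes. The 2 planned tests that model counts were not run, because columns that hold cells with no number were not accepted as counts. In the tests that were run these cells were read as 0. With 2 eyes a group, differences at a single time have little precision.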
